A study of Mus musculus with 12 samples.

Results

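Mouse ear fibroblasts on soft gels with and without slow stress relaxation were compared by RNA-seq in 6 samples of a series of 12. They comprised the 3 samples on 2-kPa viscoelastic gels and the 3 on 2-kPa elastic gels, chosen by their labels alone. The other 6 samples, on 20-kPa gels of both kinds, shared the model and served only to test whether an effect at 2 kPa differed from that at 20 kPa. All cells were primary fibroblasts from the ears of 1-month-old C57BL/6 mice, male and female, at passage 2, seeded at 500000 cells and kept for 48 h in DMEM with 10% serum. Both gels were alginate carrying RGD peptide, a ligand for integrins. Elastic gels were crosslinked covalently and relax little stress, whereas viscoelastic gels were crosslinked ionically and relax slowly, so the kind of crosslink and the stress relaxation cannot be told apart. The study calls the samples biological replicates without saying whether each came from its own mouse, so the p-values measure the spread between these samples. Below, E1 to E3 are the elastic and V1 to V3 the viscoelastic replicates at 2 kPa.

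Fibroblasts sense a substrate through integrins, which bind matrix ligands outside and connect through talin, vinculin and zyxin to actin filaments inside. Force on these contacts acts on small GTPases of the cytoskeleton, on the actin-regulated coactivators of serum response factor (SRF) and on YAP and TAZ, which drive genes through TEAD factors. Under sustained tension fibroblasts take on contractile genes such as smooth muscle actin, and they deposit and degrade the collagen-rich matrix of connective tissue. A viscoelastic substrate yields with time under the pull of a cell, while an elastic one stores the load.

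Between 36626221 and 42789950 counts fell on genes in the 6 libraries. On the first principal component of their 500 most variable genes, with 83.5% of the variance, elastic libraries had scores of -10.3 to -5.01 and viscoelastic libraries scores of 7.26 to 7.33. Of 14542 genes tested, 2892 (19.9%) were called at a Benjamini-Hochberg adjusted p under 0.05 in edgeR's quasi-likelihood test, which gives every adjusted p here, 1275 (8.77%) higher and 1617 (11.1%) lower on viscoelastic gels. On scaling by total counts alone the split turned, with 1675 higher and 1258 lower, and the median of all genes moved up by 0.0381 on the log2 scale. Most changes were small: 110 of the genes that rose (0.756% of those tested) and 144 that fell (0.99%) changed by at least 2-fold. The 3 values on one gel did not overlap those on the other for 5279 genes (36.3%), with 2412 (16.6%) higher and 2867 (19.7%) lower. Without E1, 1545 genes were called (663 higher, 882 lower), and without E2 1924 (1047 lower). The effect differed between 2 and 20 kPa for 1100 genes (7.56%), or for 670 without E1.

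Fold changes moved with transcript length. Tested genes were split into 4 classes of like size by transcript length. In the class of the shortest transcripts (up to 2117 nt) 13.6% were called higher and 2.79% lower. In that of the longest (from 4767 nt) the shares were 4.36% and 23.4%. Across all tested genes with a known length the Spearman correlation of log2 fold change with length was -0.312, and with GC content -0.0947. After each library was corrected for smooth trends in length and GC content, 2297 genes were called, with 1866 of the 2892 among them. List counts of at least 2 below are followed in parentheses by those with this correction or without 1 library where these differed by more than 1.5 times. Whether RNA quality or library preparation moved with the gel was not tested.

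Fibroblast genes were high in all 6 libraries, Col1a1 at 5686 to 6794 CPM (counts scaled to a common library size by TMM), Pdgfra at 916 to 1020.0 and Vim at 3960.5 to 4519. Genes of cartilage, which stiffens the ear, were high as well. Col2a1, the collagen of cartilage, stood at 2423 to 3335 CPM, Acan (aggrecan) at 958 to 1611 and Sox9, the chondrocyte transcription factor, at 416 to 535, although Matn1 reached at most 0.0240 CPM. The 11 cartilage markers summed to 6461 to 8267 CPM on elastic and 6140.1 to 8036 CPM on viscoelastic gels, which overlapped. Of the 10 tested, Col11a2 (log2 fold change -0.76, adjusted p = 0.000541), Chad (-1.04, adjusted p = 0.000554), Acan (-0.47, adjusted p = 0.00847) and Sox5 (-0.28, adjusted p = 0.00934) fell and none rose, with 2 down after the length and GC correction. Col2a1 had 2423, 3169 and 3261 CPM on elastic and 2572, 3335 and 2988 CPM on viscoelastic gels (log2 fold change 0.0069 ± 0.13 (SE), adjusted p = 0.977). In a bulk sample, fewer cells of a type cannot be told apart from less RNA per cell. How far cartilage cells take part in the results was not tested. The length and GC correction ended the call of Acan and Sox5.

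Several defining markers of the other cell types of an ear were at or near 0. Krt14 reached at most 0.0954 CPM, and Krt1 and Cd3e had no count. Ptprc reached at most 0.220 CPM and Pecam1 0.539, and the summed markers of endothelium, leukocytes and skeletal muscle stayed at or under 9.53 CPM in every library. Of the 7 endothelial markers tested, Tek and Kdr were called higher (1 without E3 or V3). The endothelial sum was 3.10 to 4.02 CPM on elastic and 4.80 to 4.92 CPM on viscoelastic gels, with no overlap. Of 5 leukocyte markers Cd68 was called lower (none without E1, E2, V1, V2 or V3), and their sum was 6.97 to 9.53 CPM on elastic and 6.47 to 8.38 CPM on viscoelastic gels, which overlapped. Pericyte and smooth muscle markers summed to 487 to 568 CPM on elastic and 335 to 349 CPM on viscoelastic gels, with no overlap. Most of each sum was Cspg4 (NG2), with 461 to 540 CPM on elastic and 312 to 325 CPM on viscoelastic gels. The pericyte markers Rgs5, Kcnj8 and Abcc9 reached at most 0.958, 0.514 and 0.577 CPM. Of the 7 markers in this list, Cspg4 (log2 fold change -0.66, adjusted p = 0.000578), Mcam (-0.39, adjusted p = 0.00869) and Notch3 (-0.36, adjusted p = 0.0226) fell and Myh11 rose (0.86, adjusted p = 0.0127), and without E1 none was called higher and 1 lower. Notch3 was not called without E1, E2, V1 or V2 (-0.34 to -0.30) or with the length and GC correction (-0.10), nor was Mcam without E1 (-0.31). Of 18 fibroblast markers tested Ly6a (log2 fold change 0.71, adjusted p = 0.000752) and S100a4 (0.35, adjusted p = 0.00108) rose, Fap and Nt5e fell, and their sum ran over 26372 to 27472 CPM on elastic and 25577 to 29438 CPM on viscoelastic gels, which overlapped. With the length and GC correction S100a4 was not called (0.18). Of the few markers tested of fat, of Schwann cells and melanocytes and of keratinocytes, Lpl, Mbp and Trp63 were called higher, and Fabp4 and S100b lower. Lpl was not called without E1 (0.64) or V2 (0.44). Keratinocyte markers summed to 14.8 to 18.6 CPM on elastic and 20.3 to 23.9 CPM on viscoelastic gels and Schwann cell and melanocyte markers to 88.6 to 91.1 CPM on elastic and 68.9 to 76.4 CPM on viscoelastic gels, both without overlap, and the part of these cells in the results was not tested.

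**Figure D1:**
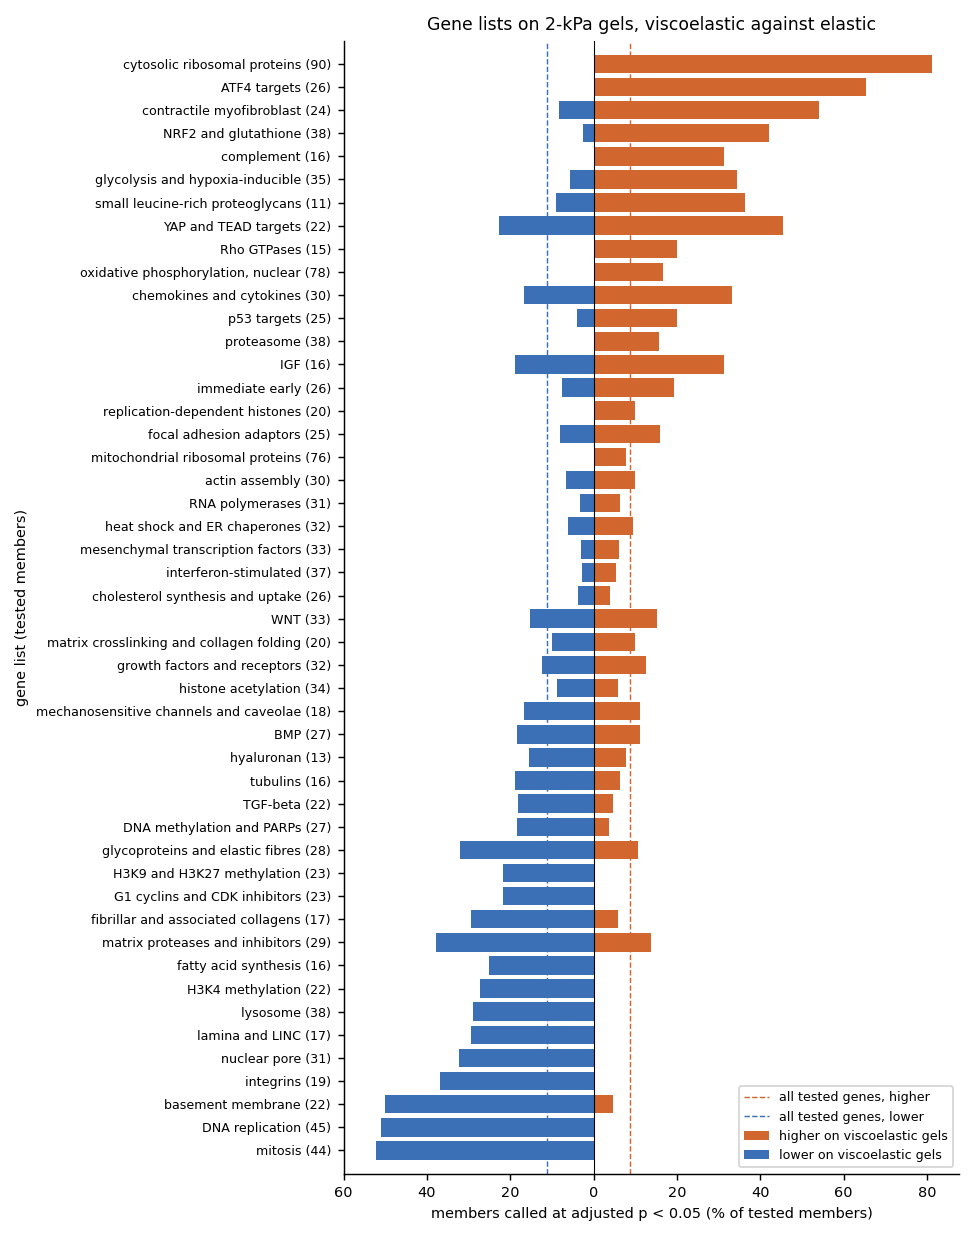
Share of the tested members of each gene list (rows, with the number tested; lists with at least 10) called higher (orange, to the right) or lower (blue, to the left) on 2-kPa viscoelastic than on 2-kPa elastic gels, in percent. Dashed lines mark the shares over all 14542 tested genes, 8.77% and 11.1%. Ribosomal proteins (81.1%), ATF4 targets (65.4%) and contractile genes (54.2%) reach farthest to the right, and mitosis (52.3%), DNA replication (51.1%) and basement membrane (50.0%) farthest to the left.

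The 12 largest rises on 2-kPa viscoelastic gels were of 1.32 to 1.69 on the log2 scale. Oxtr, the oxytocin receptor, had 5.62, 8.74 and 8.26 CPM on elastic and 23.3, 19.8 and 23.3 CPM on viscoelastic gels (log2 fold change 1.56 ± 0.14 (SE), adjusted p = 1.66e-05), a 2.94-fold rise. Il6, an inflammatory cytokine, had 5.26, 9.40 and 7.47 CPM on elastic and 15.8, 23.3 and 18.4 CPM on viscoelastic gels (log2 fold change 1.38 ± 0.21 (SE), adjusted p = 0.000616). Adamts5, an aggrecan-cleaving protease, had 40.9, 55.6 and 47.4 CPM on elastic and 118, 128 and 113 CPM on viscoelastic gels (log2 fold change 1.32 ± 0.16 (SE), adjusted p = 0.000101). All viscoelastic samples lay above all elastic ones for each of these genes. Mfap5, a microfibril protein, had 7.21, 9.40 and 7.72 CPM on elastic and 17.3, 23.8 and 19.7 CPM on viscoelastic gels (log2 fold change 1.32 ± 0.14 (SE), adjusted p = 4.53e-05). Stc2, a secreted inhibitor of the PAPP-A protease, had 3.31, 4.16 and 4.75 CPM on elastic and 9.86, 13.7 and 11.9 CPM on viscoelastic gels (log2 fold change 1.54 ± 0.18 (SE), adjusted p = 8.18e-05). Fam107a, an actin-binding protein, had 1.52, 3.48 and 2.72 CPM on elastic and 8.39, 7.25 and 9.21 CPM on viscoelastic gels (log2 fold change 1.69 ± 0.27 (SE), adjusted p = 0.000753). Dio3, which inactivates thyroid hormone, had 2.05, 2.52 and 2.33 CPM on elastic and 6.54, 7.13 and 7.44 CPM on viscoelastic gels (log2 fold change 1.61 ± 0.18 (SE), adjusted p = 5.31e-05). The other 5 of the 12 largest rises were Serpinb9b (1.5 ± 0.17), Ankrd55 (1.43 ± 0.15), U90926 (1.37 ± 0.27), the carboxypeptidase Cpa4 (1.35 ± 0.17) and the chemokine scavenger Ackr4 (1.33 ± 0.25), in log2 units with SE. In mm10, Oxtr lies at chr6:112473683-112489943, Il6 at chr5:30013114-30019981 and Adamts5 at chr16:85856173-85901828. For 9 of the 12 the rise differed from the effect at 20 kPa, where the log2 fold change of Oxtr was -0.032, of Il6 -0.14, of Cpa4 -0.18 and of Serpinb9b -0.71.

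The 12 largest falls had log2 fold changes of -2.28 to -1.43. Fap, fibroblast activation protein, a surface protease, had 28.0, 24.7 and 20.7 CPM on elastic and 6.19, 9.68 and 7.18 CPM on viscoelastic gels (log2 fold change -1.67 ± 0.19 (SE), adjusted p = 6.29e-05). Lrrc15, a membrane protein of myofibroblasts, had 6.88, 4.46 and 4.59 CPM on elastic and 1.52, 1.51 and 1.65 CPM on viscoelastic gels (log2 fold change -1.77 ± 0.24 (SE), adjusted p = 0.000221). Tgfb2, a TGF-beta ligand, had 102, 74.3 and 50.7 CPM on elastic and 25.2, 28.4 and 26.8 CPM on viscoelastic gels (log2 fold change -1.5 ± 0.19 (SE), adjusted p = 0.000115). In each case every viscoelastic sample lay below every elastic one, and the elastic samples of Tgfb2 spread by 2-fold. Enpp2 (autotaxin), which makes lysophosphatidic acid, had 29.4, 23.1 and 22.8 CPM on elastic and 4.77, 7.78 and 6.25 CPM on viscoelastic gels (log2 fold change -2.0 ± 0.16 (SE), adjusted p = 8.32e-06), a 4.01-fold fall. Crispld1, a secreted protein, had 91.1, 78.4 and 66.2 CPM on elastic and 23.5, 27.9 and 25.2 CPM on viscoelastic gels (log2 fold change -1.62 ± 0.13 (SE), adjusted p = 8.32e-06). Cyp1a1, a target of the aryl hydrocarbon receptor, had 12.3, 6.66 and 10.6 CPM on elastic and 0.865, 1.18 and 4.03 CPM on viscoelastic gels (log2 fold change -2.28 ± 0.42 (SE), adjusted p = 0.00201), with V3 nearest to the elastic samples. Fbln7 (-2.0 ± 0.30), Mamdc2 (-1.90 ± 0.22), Clca3a2 (-1.60 ± 0.15), Ncmap (-1.48 ± 0.23), the collagenase Mmp13 (-1.44 ± 0.29) and the metabolic coactivator Ppargc1a (-1.43 ± 0.21, log2 with SE) complete the 12. Enpp2 lies at chr15:54838901-54952892, Fap at chr2:62500943-62574075 and Tgfb2 at chr1:186622792-186705989 in mm10. The fall differed from the effect at 20 kPa for 10 of the 12, not for Lrrc15 or Ncmap. At 20 kPa the log2 fold change of Fap was 0.082, of Tgfb2 0.12 and of Crispld1 0.43.

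**Figure D2:**
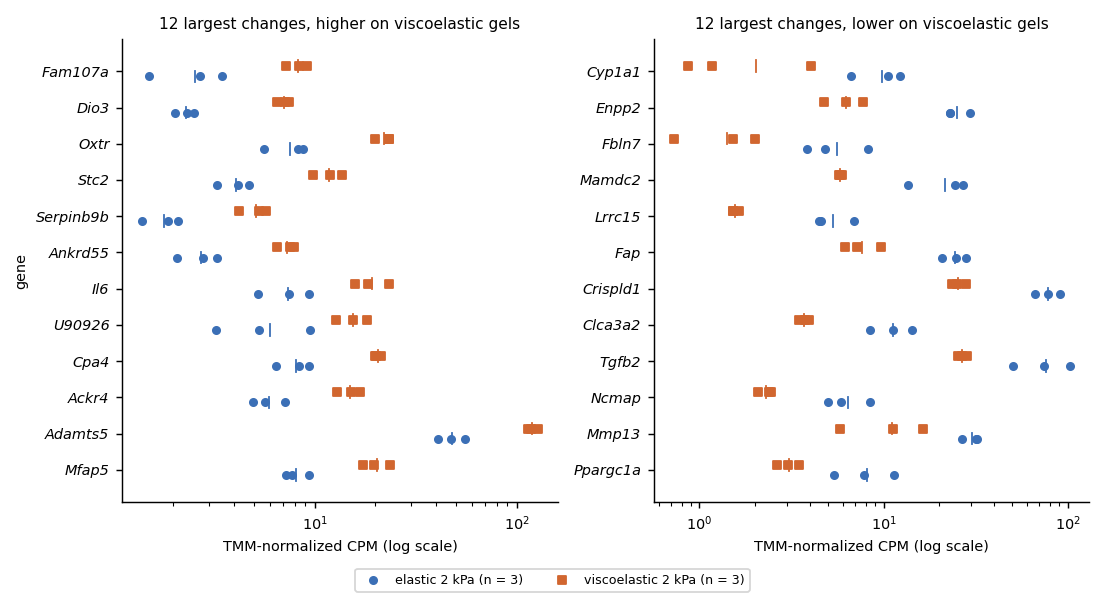
TMM-normalized CPM (log axis) of the 12 genes with the largest rise (left) and the largest fall (right) on 2-kPa viscoelastic gels, with 1 point per sample, circles for elastic and squares for viscoelastic gels (n = 3 each) and a short line at each mean. The points of the 2 gels do not overlap for any of these genes, which the rule that chose them required.

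Most contractile genes rose. Of 24 contractile and actin-bound genes tested, 13 rose and 2 fell (54.2% and 8.33%, against 8.77% and 11.1% of all genes, and 1 down without E1, E2 or V3), with a median log2 fold change of 0.25 against -7.47e-05 over all genes. Cnn1 (calponin), which binds actin in smooth muscle, had 18.9, 18.6 and 18.6 CPM on elastic and 30.1, 24.5 and 26.9 CPM on viscoelastic gels (log2 fold change 0.54 ± 0.08 (SE), adjusted p = 0.000479). All viscoelastic samples lay above all elastic ones. Acta2, smooth muscle actin, had 563, 530.0 and 491 CPM on elastic and 673, 629 and 618 CPM on viscoelastic gels (log2 fold change 0.28 ± 0.081 (SE), adjusted p = 0.0264). Tagln (transgelin) had 23.9, 24.0 and 22.5 CPM on elastic and 31.0, 29.1 and 26.6 CPM on viscoelastic gels (log2 fold change 0.30 ± 0.10 (SE), adjusted p = 0.0471). Their groups did not overlap, but both changes were small. Larger rises were fitted for Myh11, smooth muscle myosin (log2 fold change 0.86, adjusted p = 0.0127), Lmod1, an actin nucleator (0.64, adjusted p = 0.00166), Actg2 (0.45, adjusted p = 0.00984) and the regulatory light chain Myl9 (0.35, adjusted p = 0.00164). Myh11 was low, at 0.879 to 1.54 CPM on elastic and 1.90 to 2.27 CPM on viscoelastic gels. Cnn2 (0.33) and the tropomyosin Tpm2 (0.29) rose as well. Myh10, the heavy chain of nonmuscle myosin IIB, had 577, 561 and 544 CPM on elastic and 455, 395 and 438 CPM on viscoelastic gels (log2 fold change -0.38 ± 0.075 (SE), adjusted p = 0.00276) and so fell, as did Tagln2 (-0.26, adjusted p = 0.0194). The effect differed between stiffnesses for 13 of the 24 genes (7.56% over all genes), and the list's median at 20 kPa was -0.238. The difference, 2 kPa minus 20 kPa, was 0.71 ± 0.12, adjusted p = 0.00163 for Acta2, 0.88 ± 0.14, adjusted p = 0.00153 for Tagln and 0.79 ± 0.11, adjusted p = 0.000637 for Cnn1, in log2 units with SE. Removal of a single library ended the call of Acta2 (E2, E3 or V1, 0.23 to 0.28), Tagln (E1, E2, E3, V1 or V2, 0.24 to 0.31), Myh11 (E1, 0.78) and Tagln2 (E1, E2 or V3, -0.26 to -0.22). Corrected for length and GC, no call remained for Acta2, Tagln and Actg2.

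In the rest of the cytoskeleton single genes moved. Of 30 genes of actin assembly 3 rose and 2 fell (1 without E1, E2 or V3, 7 without V1), 10.0% and 6.67% against 8.77% and 11.1% of all genes. The thymosins, which hold actin monomers, were among those that rose. Tmsb4x had 172, 182 and 185 CPM on elastic and 289.6, 236 and 266 CPM on viscoelastic gels (log2 fold change 0.56 ± 0.07 (SE), adjusted p = 0.000141). Tmsb10 rose by 0.55 and the Arp2/3 subunit Arpc3 by 0.19 on the log2 scale. The formin Fmnl2 (log2 fold change -0.37, adjusted p = 0.00247) and Coro1c (-0.24, adjusted p = 0.0196) fell. Of 15 genes of these small GTPases and their effectors 3 rose (1 without V1, 5 without V2 or with the length and GC correction) and none fell. They were Rnd3, an antagonist of RhoA signalling, with 88.8, 101 and 107 CPM on elastic and 146, 149 and 151 CPM on viscoelastic gels (log2 fold change 0.59 ± 0.081 (SE), adjusted p = 0.000292), Rhob (0.27) and Rhou (0.26). Among 16 tubulin genes Tubb2b rose (log2 fold change 0.27, adjusted p = 0.00934) and Tuba1c (-0.37, adjusted p = 0.00781), Tubb5 (-0.29, adjusted p = 0.00969) and Tuba4a (-0.45, adjusted p = 0.0119) fell (1 without E1, 5 with the length and GC correction), a share near that of all genes. Not called without one of the 6 libraries were Arpc3 (E2, E3 or V3, 0.17 to 0.18), Coro1c (E1, E2 or V3, -0.24 to -0.20), Rhob (E2 or V1, 0.20 to 0.23), Rhou (E1, E3, V1 or V3, 0.21 to 0.23), Tubb5 (E1, -0.21) and Tuba4a (E1 or V3, -0.41 to -0.36). The length and GC correction ended the call of Arpc3 and Coro1c.

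**Figure D3:**
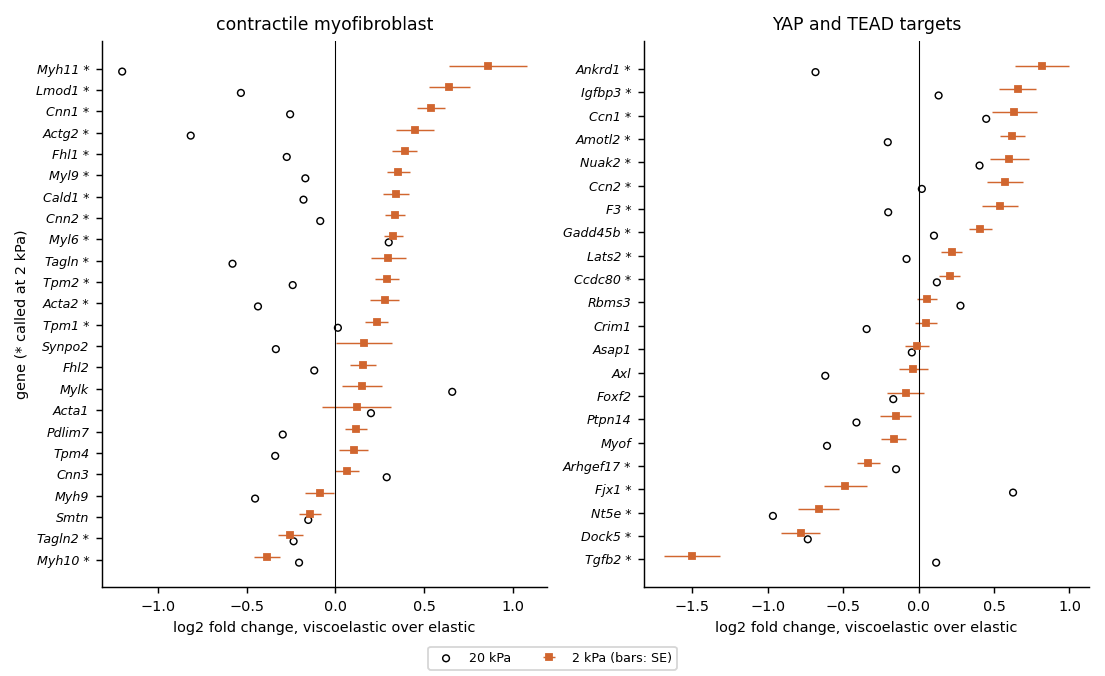
Log2 fold change of viscoelastic over elastic gels for every tested member of the contractile list (left) and of the YAP and TEAD target list (right), at 2 kPa (orange squares, bars are the SE of the fit) and at 20 kPa (open circles). An asterisk marks genes called at 2 kPa. The 2 kPa points of Cnn1, Acta2, Tagln and Ankrd1 lie above 0 and their 20 kPa points below it.

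Several integrin chains fell. Of 19 subunits tested 7 were lower (36.8%, against 11.1% of all genes), none was higher, and the median was -0.22. With the length and GC correction 2 were higher and 6 lower, with a median of -0.126. Itgb3, which pairs with alpha-v to bind RGD, had 22.8, 18.2 and 16.4 CPM on elastic and 9.46, 8.48 and 7.33 CPM on viscoelastic gels (log2 fold change -1.19 ± 0.17 (SE), adjusted p = 0.000369), a 2.27-fold fall. Its partner Itgav had 449, 452 and 428 CPM on elastic and 372, 337 and 268 CPM on viscoelastic gels (log2 fold change -0.45 ± 0.11 (SE), adjusted p = 0.00866), with V3 the lowest. Itga5, the fibronectin receptor chain (log2 fold change -0.50, adjusted p = 0.00521), Itga6, a laminin receptor chain (-0.58, adjusted p = 0.00478), and Itga9 (-0.24, adjusted p = 0.0184) fell too. The collagen-binding chains Itga2 (log2 fold change -1.03, adjusted p = 0.0032) and Itga10 also fell. Itga10, a chain known from cartilage, had 39.2, 33.6 and 33.3 CPM on elastic and 13.8, 23.3 and 19.4 CPM on viscoelastic gels (log2 fold change -0.91 ± 0.13 (SE), adjusted p = 0.000363). Itgb1, the common beta chain, had 1563, 1619 and 1530.3 CPM on elastic and 1491, 1457 and 1390.3 CPM on viscoelastic gels (log2 fold change -0.12 ± 0.071 (SE), adjusted p = 0.254), which was not called. Between 2 and 20 kPa the effect differed for Itga10 (-1.03) and Itga3 (0.62). For Itgb3 and Itgav the log2 fold changes at 20 kPa were -1.10 and -0.61. Dependence on a single library was seen for Itga9 (E2 or V3, -0.21 to -0.20). After the correction for length and GC the test was no longer passed by Itga9.

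Of 25 focal adhesion adaptors 4 rose and 2 fell (0 with the length and GC correction, 1 without E1 or V3, 4 without V1). The share that fell, 8.0%, lay below the 11.1% of all genes, and the share that rose lay above their 8.77%. Zyx (zyxin), which gathers at adhesions under tension, had 181, 163 and 157 CPM on elastic and 219, 201 and 221 CPM on viscoelastic gels (log2 fold change 0.36 ± 0.064 (SE), adjusted p = 0.00164). Its effect differed from that at 20 kPa by 0.60 ± 0.09, adjusted p = 0.000982. Lims2 (log2 fold change 1.05, adjusted p = 0.00203), the second talin Tln2 (0.34, adjusted p = 0.00291) and the actin-binding protein Nexn (0.47, adjusted p = 0.0051) rose. Tns1 (tensin) had 261, 232 and 221 CPM on elastic and 179.6, 176 and 180.3 CPM on viscoelastic gels (log2 fold change -0.41 ± 0.062 (SE), adjusted p = 0.000494) and so fell, as did Bcar1 (p130Cas, -0.22, adjusted p = 0.0162). Among 18 genes of mechanosensitive channels and caveolae, the caveolar coat genes Cavin1 (log2 fold change 0.21, adjusted p = 0.0422) and Cavin3 (0.28, adjusted p = 0.00397) rose (1 without E1, E2, E3, V1 or V2). Pkd1 (log2 fold change -0.61, adjusted p = 0.00143), the stretch-gated channel Piezo1 (-0.54, adjusted p = 0.00511) and Trpc1 (-0.30, adjusted p = 0.0498) fell (1 with the length and GC correction). A call was lost when 1 library was left out, named here with the log2 fold change without it, for Bcar1 (E1 or V3, -0.22 to -0.17), Cavin1 (E1, E2, E3, V1 or V2, 0.15 to 0.23) and Trpc1 (E1, E2, E3, V1, V2 or V3, -0.33 to -0.26). Length and GC correction removed the call of Tns1, Bcar1, Piezo1 and Trpc1.

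YAP and TEAD targets moved both ways. Of 22 genes 10 rose (45.5%) and 5 fell (22.7%), both above the shares of all genes, with a median of 0.052. Ccn1 (CYR61), a matricellular protein, had 715, 801 and 836 CPM on elastic and 1102, 1451 and 1098 CPM on viscoelastic gels (log2 fold change 0.63 ± 0.15 (SE), adjusted p = 0.00801). Its relative Ccn2 (CTGF) had 1978, 2527 and 2675 CPM on elastic and 3406, 4015 and 3268 CPM on viscoelastic gels (log2 fold change 0.57 ± 0.12 (SE), adjusted p = 0.004). Ankrd1, a stretch-induced cofactor, had 3.29, 3.97 and 3.82 CPM on elastic and 6.4, 7.61 and 5.51 CPM on viscoelastic gels (log2 fold change 0.82 ± 0.18 (SE), adjusted p = 0.00537). The groups did not overlap for any of the 3. Amotl2, which holds YAP back, had 225, 257 and 259 CPM on elastic and 383, 415 and 342 CPM on viscoelastic gels (log2 fold change 0.62 ± 0.082 (SE), adjusted p = 0.000193). Igfbp3 (log2 fold change 0.66, adjusted p = 0.00213), Nuak2 (0.60, adjusted p = 0.00515), F3, tissue factor (0.54, adjusted p = 0.00609), Gadd45b (0.41, adjusted p = 0.00218), the YAP kinase Lats2 (0.22, adjusted p = 0.0338) and Ccdc80 (0.21, adjusted p = 0.046) rose as well. Tgfb2 (above), Dock5 (log2 fold change -0.78, adjusted p = 0.000973), the ecto-nucleotidase Nt5e (-0.66, adjusted p = 0.00341), Fjx1 (-0.49, adjusted p = 0.026) and Arhgef17 (-0.33, adjusted p = 0.00721) fell. The effect on Ankrd1 differed by 1.5 ± 0.24, adjusted p = 0.00169 and that on Amotl2 by 0.83 ± 0.12, adjusted p = 0.000578 from 20 kPa, whereas for Ccn2 the difference was 0.55 ± 0.17, adjusted p = 0.059, which was not called. Calls lost on leaving out 1 of these libraries, with the range of values without it, were those of Lats2 (E1, E2, E3, V1 or V2, 0.16 to 0.23), Ccdc80 (E1, E2, E3, V2 or V3, 0.16 to 0.23) and Fjx1 (E1, E2, V1 or V3, -0.47 to -0.34). Corrected for length and GC, no call remained for Arhgef17.

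Promoters of the YAP and TEAD targets that rose are given because 3 of the 7 with a RefSeq entry (42.9%) held the TEAD letters GGAATG on either strand in the 250 bases before the start, against 14.4% of the 27025 genes in the promoter table and 13.2% of the 10882 tested genes in it. Over all tested genes with an entry that were called higher the share was 14.9%, and over those called lower 12.6%. Capitals mark the letters (CATTCC where they lie on the opposite strand), read 5′ to 3′ on the gene's strand in GRCm38.p6, the assembly of mm10. Ccn1 is shown from chr3:145649986-145650235 on the minus strand, Ankrd1 from chr19:36119845-36120094 on the minus strand and Amotl2 from chr9:102717554-102717803 on the plus strand.
Ccn1: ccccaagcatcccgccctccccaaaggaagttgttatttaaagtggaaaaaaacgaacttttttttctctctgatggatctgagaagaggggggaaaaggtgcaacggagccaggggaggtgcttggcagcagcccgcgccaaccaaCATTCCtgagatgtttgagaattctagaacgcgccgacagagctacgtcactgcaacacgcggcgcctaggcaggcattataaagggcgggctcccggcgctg
Ankrd1: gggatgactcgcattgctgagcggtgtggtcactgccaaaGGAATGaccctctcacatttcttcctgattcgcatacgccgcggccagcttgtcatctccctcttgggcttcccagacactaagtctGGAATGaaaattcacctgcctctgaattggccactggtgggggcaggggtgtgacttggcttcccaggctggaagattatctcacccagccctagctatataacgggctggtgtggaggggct
Amotl2: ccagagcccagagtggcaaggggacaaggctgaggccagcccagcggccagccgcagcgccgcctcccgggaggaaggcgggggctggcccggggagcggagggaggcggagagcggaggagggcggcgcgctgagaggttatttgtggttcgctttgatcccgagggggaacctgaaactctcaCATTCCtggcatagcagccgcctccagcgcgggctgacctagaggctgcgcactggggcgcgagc
Of the 10 contractile genes that rose and had an entry, 4 (Myl6, Cnn2, Fhl1 and Myl9) held a CArG box, the SRF motif, against 1.38% of tested genes. The TEAD letters stood in 4 of these 10 as well, and in both contractile genes that fell. In Myl9 the box lies 161 bases before the start, in chr2:156775214-156775463 on the plus strand.
Myl9: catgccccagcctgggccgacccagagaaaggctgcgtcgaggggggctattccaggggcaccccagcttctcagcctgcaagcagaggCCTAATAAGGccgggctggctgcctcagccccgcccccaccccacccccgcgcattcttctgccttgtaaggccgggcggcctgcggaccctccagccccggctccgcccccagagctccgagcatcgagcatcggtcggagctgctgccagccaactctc
A match is a description of the letters and not a bound site.

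Most immediate early genes did not pass the test. Of 26, 5 rose (2 without E1, 3 without E3) and 2 fell (0 without E1 or V3, 1 without E2 or V1, 4 without V2). These were 19.2% and 7.69%, against 8.77% and 11.1% of all genes. Klf2, a flow- and force-responsive transcription factor, had 20.1, 24.8 and 23.5 CPM on elastic and 37.6, 48.8 and 36.6 CPM on viscoelastic gels (log2 fold change 0.85 ± 0.11 (SE), adjusted p = 0.00019). Klf4 (log2 fold change 0.36, adjusted p = 0.0213), Klf6 (0.38, adjusted p = 0.000916), Myc (0.28, adjusted p = 0.0131) and Fosl2 (0.19, adjusted p = 0.0356) rose. The phosphatase Dusp4 (log2 fold change -0.69, adjusted p = 0.0142) and Atf3 (-0.77, adjusted p = 0.0427) fell. Fos had 175, 186 and 162 CPM on elastic and 166, 225 and 173 CPM on viscoelastic gels. Egr1 had 356, 351 and 308 CPM on elastic and 351, 433 and 391 CPM on viscoelastic gels. Neither was called (adjusted p = 0.743 and 0.401). With 1 library fewer, the test was no longer passed by Dusp4 (E1 or V3, -0.62 to -0.53), Myc (E1, 0.25), Klf4 (E1, E3 or V1, 0.26 to 0.39), Fosl2 (E1, E3, V2 or V3, 0.17 to 0.20) and Atf3 (E1, E2, V1 or V3, -0.88 to -0.52).

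Several matrix genes fell. Among 17 collagen chains 5 fell (3 with the length and GC correction) and 1 rose, 29.4% and 5.88% against 11.1% and 8.77% of all genes. The main fibrillar chains did not pass the test, with 6051, 6259.6 and 5992 CPM on elastic and 5686, 6793 and 6131 CPM on viscoelastic gels for Col1a1. Col3a1 had 7158, 7597 and 7621 CPM on elastic and 6923, 8187 and 7414 CPM on viscoelastic gels. Col14a1, a fibril-associated collagen, had 114, 116 and 124 CPM on elastic and 62.3, 64.2 and 73.3 CPM on viscoelastic gels (log2 fold change -0.82 ± 0.084 (SE), adjusted p = 3.16e-05). At 20 kPa its log2 fold change was 0.71, and the difference was -1.53 ± 0.12, adjusted p = 7.94e-06. Col6a3 (log2 fold change -1.13, adjusted p = 3.92e-05), Col16a1 (-0.57, adjusted p = 0.00019), Col5a3 (-0.55, adjusted p = 0.00447) and Col7a1 (-0.58, adjusted p = 0.0089) fell and Col8a2 (0.33, adjusted p = 0.0292) rose. Basement membrane genes fell in 11 of 22 cases (50.0%) (4 with the length and GC correction, 7 without E1 or V3), with a median of -0.24. Agrn (agrin), a heparan sulfate proteoglycan, had 313, 268 and 268 CPM on elastic and 165, 191 and 172 CPM on viscoelastic gels (log2 fold change -0.68 ± 0.073 (SE), adjusted p = 3.92e-05). Hspg2 (perlecan, -0.45), Col4a1 (-0.31), Col4a2 (-0.45), Col4a6 (-0.75) and the laminin chain Lamc1 (-0.27) fell, and Col4a4, near 1 CPM, rose (log2 fold change 0.72, adjusted p = 0.0355). These are long genes, with a median transcript of 6493 nt against 3327 over all tested genes, and with the correction the list's median was -0.0584. Removal of a single library ended the call of Col8a2 (E1, E2, V2 or V3, 0.24 to 0.33), Col4a4 (E1, E2, V1 or V2, 0.56 to 0.73), Col7a1 (E1, -0.47), Col4a1 (E1, E2 or V3, -0.29 to -0.26) and Lamc1 (E1, E2, V2 or V3, -0.28 to -0.21). After the correction for length and GC the test was no longer passed by Col5a3, Col7a1, Hspg2, Col4a1, Col4a2 and Lamc1.

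Of 28 glycoproteins and elastic fibre genes 9 fell (4 without E1, E2 or V3 or with the length and GC correction) and 3 rose (5 with the length and GC correction). Ltbp4, which binds latent TGF-beta, had 139, 135 and 138 CPM on elastic and 75.5, 87.0 and 83.2 CPM on viscoelastic gels (log2 fold change -0.75 ± 0.063 (SE), adjusted p = 8.32e-06). Tnxb, tenascin-X (log2 fold change -0.83, adjusted p = 0.00094), Eln, elastin (-0.66, adjusted p = 0.0288), and Fbn1, fibrillin (-0.29, adjusted p = 0.0303), fell. Mfap5 (above), the matricellular Ccn5 (log2 fold change 0.55, adjusted p = 0.000547) and Fbln1 (0.34, adjusted p = 0.0349) rose. Fn1, fibronectin, took 3.75% to 5.49% of all counts, with 53352, 56695 and 48816 CPM on elastic and 45758, 37478 and 43963 CPM on viscoelastic gels. The gels did not overlap, but the test was not passed (log2 fold change -0.32 ± 0.11 (SE), adjusted p = 0.057). Small leucine-rich proteoglycans, which coat collagen fibrils, rose in 4 of 11 cases (2 without E1, E2 or V2). Ogn (osteoglycin) had 520.0, 564 and 699 CPM on elastic and 904, 1106 and 969 CPM on viscoelastic gels (log2 fold change 0.74 ± 0.15 (SE), adjusted p = 0.00306). Omd (0.73), Fmod, fibromodulin (0.43), and Aspn, asporin (0.48), rose too. Kera (keratocan) fell at under 1.1 CPM (log2 fold change -1.60, adjusted p = 0.00372). Not called without one of the 6 libraries were Eln (E1, E2, E3, V1 or V3, -0.73 to -0.48), Fbn1 (E1, E2, V2 or V3, -0.32 to -0.20), Fbln1 (E1, E2, E3, V2 or V3, 0.25 to 0.38), Fmod (E1, E2, V2 or V3, 0.29 to 0.48) and Aspn (E1, E2 or V2, 0.35 to 0.47). Length and GC correction removed the call of Eln and Fbn1.

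Of 20 crosslinking and collagen folding genes the prolyl hydroxylase P4ha3 (log2 fold change 0.60, adjusted p = 0.000272) and the lysyl oxidase Loxl2 (0.39, adjusted p = 0.0037) rose and the hydroxylases P3h2 (-0.52, adjusted p = 0.000752) and Plod1 (-0.21, adjusted p = 0.0378) fell (1 without E1, E2, V1 or V3 or with the length and GC correction, 4 without V2). At 10.0% each way, this list lay near all genes, of which 8.77% were called higher and 11.1% lower. Matrix proteases and their inhibitors fell in 11 of 29 cases (37.9%) and rose in 4 (13.8%). Adamts9, a versican-cleaving protease, had 96.4, 84.5 and 74.3 CPM on elastic and 38.5, 45.5 and 45.0 CPM on viscoelastic gels (log2 fold change -0.98 ± 0.086 (SE), adjusted p = 1e-05) and 0.95 at 20 kPa, a difference of -1.93 ± 0.12, adjusted p = 1.35e-06. Mmp9, a gelatinase, had 6.26, 5.61 and 3.10 CPM on elastic and 0.888, 1.49 and 0.978 CPM on viscoelastic gels (log2 fold change -2.16 ± 0.38 (SE), adjusted p = 0.00144), all viscoelastic samples lying below all elastic ones. Mmp13 (above), Mmp3 (log2 fold change -0.75, adjusted p = 0.0288), the gelatinase Mmp2 (-0.32, adjusted p = 0.00924) and its membrane-bound activator Mmp14 (-0.38, adjusted p = 0.0146) fell. Adamts5 (above), Mmp23 (log2 fold change 0.63, adjusted p = 0.0012), Adamts6 (0.59, adjusted p = 0.00292) and the procollagen protease Adamts2 (0.37, adjusted p = 0.0488) rose. Among 13 hyaluronan genes the synthase Has2 (log2 fold change -0.41, adjusted p = 0.00161) and Cemip2 (-0.49, adjusted p = 0.000767) fell (4 without V2) and the hyaluronan-degrading Cemip rose (0.36, adjusted p = 0.0265), with V2 among the elastic samples. In the hyaluronan list 7.69% thus rose and 15.4% fell. Dependence on a single library was seen for Cemip (E1, E3, V1 or V3, 0.25 to 0.36), Plod1 (E1, E2, V1 or V3, -0.20 to -0.17), Mmp2 (E1, -0.27), Mmp14 (E1 or E2, -0.37 to -0.32), Mmp3 (E1, E3, V1 or V3, -0.76 to -0.55) and Adamts2 (E1, E2, E3, V2 or V3, 0.32 to 0.39). Corrected for length and GC, no call remained for Plod1.

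**Figure D4:**
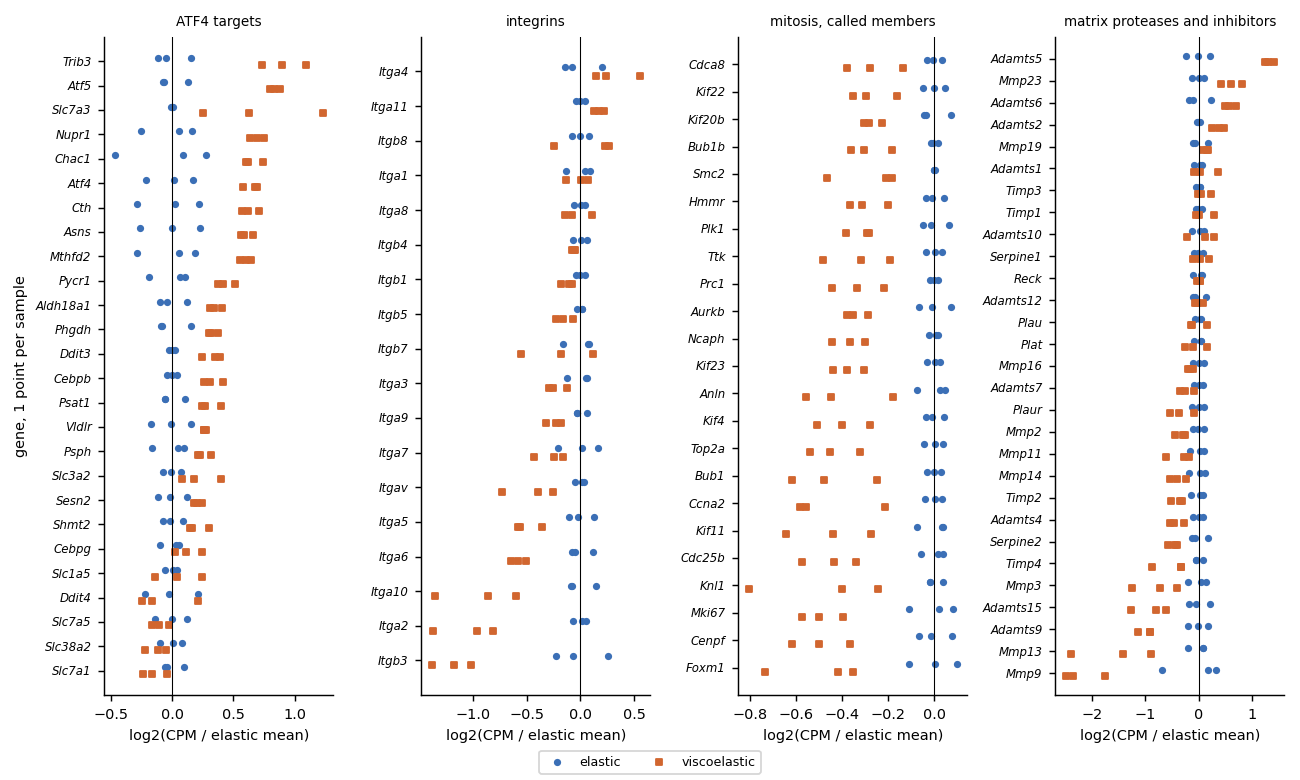
Log2 of each sample's CPM over the mean of the elastic samples at 2 kPa, with 1 point per sample (circles elastic, squares viscoelastic, n = 3 each) for ATF4 targets, integrins, called mitosis genes, and matrix proteases and inhibitors with a mean of at least 1 CPM. Squares lie to the right of 0 for most ATF4 targets and to the left for the called mitosis genes and for Itgb3, Itga2, Itga10, Mmp13 and Mmp9.

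Growth factor pathways changed in single ligands and binding proteins. Of 22 TGF-beta genes 4 fell (8 without V1) and 1 rose, 18.2% and 4.55% against 11.1% and 8.77% of all genes. Tgfb1 had 72.4, 59.7 and 52.8 CPM on elastic and 33.9, 35.1 and 34.4 CPM on viscoelastic gels (log2 fold change -0.84 ± 0.10 (SE), adjusted p = 7.16e-05). The target Tgfbi (log2 fold change -0.75, adjusted p = 0.000547) and the pseudoreceptor Bambi (-0.28, adjusted p = 0.0171) fell, and the activin chain Inhbb rose (0.37, adjusted p = 0.0226). Of 27 BMP genes 3 rose (1 without E1 or V2) and 5 fell (2 without E1 or V3, 3 without E2). These shares were 11.1% and 18.5%, against 8.77% and 11.1% of all genes. The antagonist Grem1 (gremlin) had 563, 580.2 and 547 CPM on elastic and 306, 336 and 292 CPM on viscoelastic gels (log2 fold change -0.86 ± 0.10 (SE), adjusted p = 8.6e-05). The ligand Bmp4 (log2 fold change 1.18, adjusted p = 0.0315), the inhibitory Smad6 (0.24, adjusted p = 0.0192) and Fstl1 (0.40, adjusted p = 0.00271) rose. The ligands Bmp5 (log2 fold change -0.36, adjusted p = 0.00161), Gdf5 (-0.77, adjusted p = 0.0219) and Gdf10 (-0.79, adjusted p = 0.0467) and the target Id1 (-0.32, adjusted p = 0.0141) fell. A call was lost when 1 library was left out, named here with the log2 fold change without it, for Inhbb (E2, E3 or V2, 0.30 to 0.35), Bambi (E2 or V3, -0.26 to -0.21), Bmp4 (E1, E3, V2 or V3, 0.90 to 1.24), Smad6 (E1 or V2, 0.20 to 0.22), Id1 (E1, E2 or V3, -0.30 to -0.24), Gdf5 (E1, V1 or V3, -0.72 to -0.54) and Gdf10 (E1, E2, V1 or V3, -0.79 to -0.59). The length and GC correction ended the call of Bambi and Gdf10.

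Of 33 WNT genes 5 rose (10 with the length and GC correction) and 5 fell (3 without E1 or E3), 15.2% each way against 8.77% and 11.1% of all genes, with a median of -0.00981. The WNT-amplifying R-spondins Rspo1 (log2 fold change 1.23, adjusted p = 0.000209) and Rspo3 (0.60, adjusted p = 0.00485) rose, and so did the inhibitors Sfrp1 (0.95, adjusted p = 0.00175), Sfrp2 (0.86, adjusted p = 0.00118) and Nkd2, the last with 8.55, 9.26 and 8.57 CPM on elastic and 14.4, 14.4 and 14.6 CPM on viscoelastic gels (0.72 ± 0.071 (SE), adjusted p = 2.31e-05). The coreceptor Lrp5 (log2 fold change -0.28, adjusted p = 0.00541), beta-catenin Ctnnb1 (-0.25, adjusted p = 0.0144), Tcf7 (-0.43, adjusted p = 0.0147), the feedback inhibitor Notum (-0.70, adjusted p = 0.0073) and Wnt10b (-0.57, adjusted p = 0.0429) fell. Of 16 genes of the insulin-like growth factor system 5 rose and 3 fell. The binding proteins Igfbp2 (log2 fold change 0.75, adjusted p = 0.000162), Igfbp3 and Igfbp5 (0.57, adjusted p = 0.0141) rose with Stc2 and the binding-protein protease Pappa2 (1.31, adjusted p = 0.0007). The ligand Igf1 (log2 fold change -0.50, adjusted p = 0.00328), the clearance receptor Igf2r (-0.54, adjusted p = 0.000752) and Pappa (-0.19, adjusted p = 0.0397) fell. Calls lost on leaving out 1 of these libraries, with the range of values without it, were those of Ctnnb1 (E1 or E2, -0.24 to -0.23), Tcf7 (E3, -0.37), Wnt10b (E1, E3, V1 or V3, -0.63 to -0.39), Igfbp5 (E1 or V3, 0.48 to 0.53) and Pappa (E1, E2, V2 or V3, -0.20 to -0.14). After the correction for length and GC the test was no longer passed by Lrp5 and Pappa.

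Of 32 other growth factors and receptors 4 rose and 4 fell. Vegfd, a lymphatic growth factor, had 77.9, 78.6 and 77.8 CPM on elastic and 107, 122 and 116 CPM on viscoelastic gels (log2 fold change 0.56 ± 0.094 (SE), adjusted p = 0.00107). Fgf7 (log2 fold change 0.41, adjusted p = 0.00149), Pdgfd (0.75, adjusted p = 0.00609) and Gas6 (0.55, adjusted p = 0.00708) rose, all of them ligands. The receptors Fgfr2 (log2 fold change -0.36, adjusted p = 0.00113), Fgfr3 (-0.59, adjusted p = 0.00312) and Met (-0.48, adjusted p = 0.00478) and the secreted Angptl2 (-0.47, adjusted p = 0.00411) fell. These shares, 12.5% each way, were near those of all genes.

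Of 30 chemokines, cytokines and feedback genes 10 rose and 5 fell (33.3% and 16.7%). Besides Il6, the chemokines Ccl7 (log2 fold change 0.80, adjusted p = 0.00094), Cxcl1 (0.89, adjusted p = 0.00847), Cxcl5 (1.08, adjusted p = 0.00218) and Cxcl14 (0.45, adjusted p = 0.0381) and the acute phase genes Lcn2 (0.82, adjusted p = 0.0101) and Saa3 (1.00, adjusted p = 0.0331) rose. Cx3cl1 (fractalkine) had 125, 95.7 and 92.3 CPM on elastic and 45.8, 53.5 and 48.4 CPM on viscoelastic gels (log2 fold change -1.09 ± 0.11 (SE), adjusted p = 3.26e-05). Ccl8 (log2 fold change -1.84, adjusted p = 0.00353), Lif (-1.30, adjusted p = 0.00559), Il11 (-0.81, adjusted p = 0.00574) and the NF-kappaB inhibitor Tnfaip3 (-0.48, adjusted p = 0.0262) fell. The effect differed from that at 20 kPa for 11 of the 30. Cxcl12, a stromal chemokine, had 469.6, 472 and 436 CPM on elastic and 514, 508 and 520.0 CPM on viscoelastic gels and was not called (adjusted p = 0.177). Complement genes rose in 5 of 16 cases (31.2%, against 8.77% of all genes) and fell in none. Serping1, the C1 inhibitor, had 38.9, 56.3 and 56.6 CPM on elastic and 105, 121 and 124 CPM on viscoelastic gels (log2 fold change 1.2 ± 0.18 (SE), adjusted p = 0.000519). The C1 proteases C1ra (log2 fold change 0.89, adjusted p = 0.00135) and C1s1 (0.88, adjusted p = 0.0016), Cd55 (0.73, adjusted p = 0.0043) and Cfb (0.72, adjusted p = 0.0457) rose. C3 had 1016, 1264 and 1147 CPM on elastic and 1227, 1261 and 1428 CPM on viscoelastic gels (log2 fold change 0.19 ± 0.10 (SE), adjusted p = 0.182). Interferon-stimulated genes showed 2 up (Ifit2, log2 fold change 0.25, adjusted p = 0.0166, and Gbp2, 0.34, adjusted p = 0.0497), 0 without E1 and 1 without any other library or with the length and GC correction, and 1 down (Tapbp, -0.39, adjusted p = 0.0133) of 37, both below the shares of all genes. Removal of a single library ended the call of Ifit2 (E1 or V1, 0.18 to 0.21), Tapbp (E1 or V3, -0.35 to -0.33), Saa3 (E1, E3, V2 or V3, 0.69 to 1.07), Cxcl14 (E1, E3, V2 or V3, 0.30 to 0.47), Tnfaip3 (E1, E2 or V3, -0.51 to -0.41), Cfb (E1, E2, E3, V1, V2 or V3, 0.63 to 0.86) and Gbp2 (E1, E2, E3, V2 or V3, 0.26 to 0.36). Corrected for length and GC, no call remained for Saa3, Cxcl14, Tnfaip3, Cfb and Gbp2.

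Many cell cycle genes fell in RNA. By EdU labelling at 48 h, the study instead reports more proliferation on viscoelastic than on elastic 2-kPa gels. How these measures relate was not tested. Of 44 mitosis genes 23 fell (52.3%, against 11.1%) (12 without E1 or V3), none rose, all 44 fitted values were below 0 and 41 did not overlap (19.7% over all genes). The median was -0.27, and -0.296 with the length and GC correction. Mki67, the proliferation marker Ki-67, had 467, 486 and 427 CPM on elastic and 349.9, 309 and 326 CPM on viscoelastic gels (log2 fold change -0.49 ± 0.11 (SE), adjusted p = 0.00709). Top2a, topoisomerase II, had 414, 405 and 391 CPM on elastic and 322, 278 and 294 CPM on viscoelastic gels (log2 fold change -0.44 ± 0.10 (SE), adjusted p = 0.00598). The mitotic driver Foxm1 (log2 fold change -0.49, adjusted p = 0.0083), the kinase Plk1 (-0.32, adjusted p = 0.0156) and the phosphatase Cdc25b (-0.45, adjusted p = 0.00148) fell as well. Of 45 DNA replication genes 23 fell (14 without V3, 15 without E1) and none rose, with a median of -0.24 and, corrected, of -0.269. The helicase subunit Mcm2 had 55.6, 52.4 and 48.3 CPM on elastic and 37.8, 38.9 and 38 CPM on viscoelastic gels (log2 fold change -0.45 ± 0.081 (SE), adjusted p = 0.00175). Uhrf1 (log2 fold change -0.48, adjusted p = 0.000906), which keeps DNA methylation through replication, and the nuclease Fen1 (-0.59, adjusted p = 0.0433) fell. At 20 kPa the medians of these lists were -0.61 for mitosis and -0.428 for replication, and the difference between stiffnesses was called for 4 and 2 genes. Not called without one of the 6 libraries were Fen1 (E1, E2, V1, V2 or V3, -0.62 to -0.49) and Plk1 (E1 or V3, -0.29).

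In G1, E2f8 (log2 fold change -0.56, adjusted p = 0.00251), Rbl1 (-0.41, adjusted p = 0.0107), Cdk6 (-0.30, adjusted p = 0.0225), the inhibitor Cdkn2c (-0.20, adjusted p = 0.0236) and Ccne2 (-0.50, adjusted p = 0.0303) fell, 5 of 23 (1 without V3, 2 without E1 or V2, 3 without E2 or with the length and GC correction). That was 21.7%, against 11.1% of all genes. Ccnd1 (cyclin D1) had 172, 165 and 156 CPM on elastic and 192, 149 and 152 CPM on viscoelastic gels (log2 fold change -0.0021 ± 0.11 (SE), adjusted p = 0.992). The inhibitor Cdkn1a (p21) had 208, 179.8 and 165 CPM on elastic and 199.9, 187 and 186 CPM on viscoelastic gels (log2 fold change 0.051 ± 0.088 (SE), adjusted p = 0.722). Both overlapped. Among 25 p53 targets Plk2 (log2 fold change 0.47, adjusted p = 0.000844), Perp (0.53, adjusted p = 0.00842), Mdm2 (0.26, adjusted p = 0.0409), Sesn2 (0.21, adjusted p = 0.0451) and Bax (0.21, adjusted p = 0.0456) rose (3 without E2, E3, V1 or V3 or with the length and GC correction) and Sesn1 fell (-0.21, adjusted p = 0.0294). These were 20.0% and 4.0%, against 8.77% and 11.1% of all genes. Of 66 replication-dependent histone genes 20 were tested in this polyA RNA, and H2bc6 (log2 fold change 0.53, adjusted p = 0.0158) and H2bc4 (0.22, adjusted p = 0.0202) rose (1 without E1, E2, V1 or V3 or with the length and GC correction). The promoter of Top2a is shown for the mitosis genes that fell. Of the 20 with an entry, 16 held the NF-Y letters CCAAT on either strand, against 40.5% of tested genes. Top2a held 6 matches and Plk1, also among the 16, held 1. CCAAT was not particular to mitosis genes. Among genes that rose it stood in 7 of 10 contractile, 10 of 15 ATF4 and 9 of 15 NRF2 and glutathione genes. It stood in 13 of 21 replication genes that fell. The share was below that of tested genes for YAP and TEAD targets (2 of 7) and ribosomal protein genes (15 of 54) that rose. It was also lower for lysosomal genes that fell (2 of 8). The CHR letters TTTGAA, read by the MuvB complex, stood in 6 of the 20 mitosis genes (30.0%, against 13.0%). The E2F letters TTTNGCGC stood in 4 of 21 replication genes that fell (19.0%, against 2.23%) and in none of the 20 mitosis genes. Capitals mark the 6 matches in the 250 bases at chr11:99024190-99024439 on the minus strand.
Top2a: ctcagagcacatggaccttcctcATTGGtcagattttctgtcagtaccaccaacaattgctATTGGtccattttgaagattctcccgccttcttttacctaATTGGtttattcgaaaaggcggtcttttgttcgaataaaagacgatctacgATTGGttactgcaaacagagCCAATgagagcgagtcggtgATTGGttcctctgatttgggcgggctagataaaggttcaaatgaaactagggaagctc Dependence on a single library was seen for Sesn1 (E1, E2, V1 or V2, -0.21 to -0.18), H2bc6 (E1 or V3, 0.40 to 0.49), Rbl1 (E1 or V3, -0.38 to -0.34), Cdk6 (E2, V2 or V3, -0.28 to -0.24), Cdkn2c (E1, V2 or V3, -0.19 to -0.17), Ccne2 (E1, E2, E3, V2 or V3, -0.53 to -0.39), Mdm2 (E1, E2, E3, V1, V2 or V3, 0.21 to 0.29), Sesn2 (E1, E3, V1, V2 or V3, 0.15 to 0.22), Bax (E2, E3, V1 or V3, 0.15 to 0.23) and H2bc4 (E2, E3 or V1, 0.20 to 0.21). After the correction for length and GC the test was no longer passed by Cdk6, Cdkn2c, Mdm2, Bax and H2bc4.

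Changes in genes of the nucleus and of chromatin were small. All 17 lamina and LINC complex genes had fitted values below 0, and 5 fell (2 without E1, E2 or V3, 3 without E3 or with the length and GC correction). That was 29.4%, against 11.1% of all genes. Sun2, which links the lamina to the cytoskeleton, had 111, 106 and 103 CPM on elastic and 77.9, 86.9 and 79.5 CPM on viscoelastic gels (log2 fold change -0.39 ± 0.065 (SE), adjusted p = 0.00104). Sun1 (log2 fold change -0.17, adjusted p = 0.0421), Syne2 (-0.59, adjusted p = 0.00724), Lbr (-0.27, adjusted p = 0.026) and Lemd3 (-0.25, adjusted p = 0.028) fell too. Lmna had 561, 561 and 515 CPM on elastic and 469, 543 and 436 CPM on viscoelastic gels (log2 fold change -0.18 ± 0.08 (SE), adjusted p = 0.131). Lmnb1 had 47.6, 47.3 and 46.4 CPM on elastic and 42.9, 44.1 and 35.5 CPM on viscoelastic gels (log2 fold change -0.21 ± 0.088 (SE), adjusted p = 0.111). Neither was called. Nuclear pore genes fell in 10 of 31 cases, or 32.3% (5 without E1 or E2, 6 without V3), Ndc1 (log2 fold change -0.42, adjusted p = 0.00188) and Ranbp2 (-0.25, adjusted p = 0.0463) among them. Of 34 genes of histone acetylation the deacetylases Hdac8 (log2 fold change 0.40, adjusted p = 0.00323) and Hdac7 (0.17, adjusted p = 0.0352) rose (1 without E1, E2, V2 or V3) and the acetyltransferases Kat6a (-0.35, adjusted p = 0.0186), Ep300 (-0.26, adjusted p = 0.0253) and Ncoa3 (-0.17, adjusted p = 0.0361) fell (0 without E1 or V2, 1 without E2 or with the length and GC correction), shares of 5.88% and 8.82% that lay below those of all genes. Hdac1 (0.055, adjusted p = 0.46) and Kat2b (0.081, adjusted p = 0.513) were not called. A call was lost when 1 library was left out, named here with the log2 fold change without it, for Kat6a (E1, E2 or V2, -0.33 to -0.24), Lbr (E1, E2 or V3, -0.27 to -0.19), Lemd3 (E1, E2, E3 or V3, -0.27 to -0.17), Sun1 (E1, E2, E3, V1 or V3, -0.18 to -0.15), Ranbp2 (E1, E2, V2 or V3, -0.25 to -0.18), Hdac7 (E1, E2, E3, V2 or V3, 0.15 to 0.17), Ep300 (E1, E2, V2 or V3, -0.26 to -0.19) and Ncoa3 (E1, E2, V1 or V2, -0.17 to -0.14). Length and GC correction removed the call of Kat6a, Lemd3, Sun1, Ranbp2, Ep300 and Ncoa3.

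H3K4 methylation genes fell in 6 of 22 cases (1 without E1 or with the length and GC correction, 2 without E2 or V3, 3 without E3), the writer Kmt2c first (log2 fold change -0.35, adjusted p = 0.000898). Their share was 27.3%, against 11.1% of all genes, and their median transcript was 6679 nt long. For repressive histone methylation, the heterochromatin protein Cbx5 (log2 fold change -0.36, adjusted p = 0.0073), Ehmt1 (-0.19, adjusted p = 0.023), Jarid2 (-0.24, adjusted p = 0.0246), the Polycomb enzyme Ezh2 (-0.20, adjusted p = 0.0247) and Suv39h2 (-0.37, adjusted p = 0.0432) fell, 5 of 23 (1 without E1 or V3, 2 without E2, 3 without V2 or with the length and GC correction). The DNA methyltransferases Dnmt1 (log2 fold change -0.38, adjusted p = 0.00348) and Dnmt3a (-0.26, adjusted p = 0.00342), with Tet3 (-0.35, adjusted p = 0.00488), Tnks (-0.22, adjusted p = 0.0387) and Tdg (-0.27, adjusted p = 0.0438), fell, and Parp3 rose (0.33, adjusted p = 0.00341), 5 and 1 of 27 (3 without E1, E2 or V3 or with the length and GC correction, 8 without V1). In the list of repressive methylation 21.7% thus fell, and in that of DNA methylation and PARPs 18.5% fell and 3.7% rose. Among RNA polymerase subunits Polr2h (log2 fold change 0.23, adjusted p = 0.0333) and Polr3gl (0.26, adjusted p = 0.0402) rose, 6.45% against 8.77% of all genes. Calls lost on leaving out 1 of these libraries, with the range of values without it, were those of Polr2h (E1, E2, E3, V1 or V3, 0.20 to 0.26), Ehmt1 (E1 or V3, -0.19 to -0.17), Jarid2 (E1, E2, V1 or V3, -0.25 to -0.20), Ezh2 (E1, E2, V2 or V3, -0.21 to -0.19), Suv39h2 (E1, E2, E3, V2 or V3, -0.39 to -0.33), Tnks (E1, E2, V2 or V3, -0.21 to -0.16), Tdg (E1, E2, E3, V2 or V3, -0.29 to -0.25) and Polr3gl (E1, E2, V2 or V3, 0.22 to 0.26). Corrected for length and GC, no call remained for Dnmt3a, Polr2h, Ehmt1, Jarid2, Tet3, Tnks and Polr3gl.

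Ribosomal protein genes rose. Of 90 cytosolic ribosomal protein genes 73 rose and none fell (81.1%, against 8.77%), with a median of 0.32. Rpl21 had 149, 148 and 154 CPM on elastic and 203, 193 and 221 CPM on viscoelastic gels (log2 fold change 0.45 ± 0.064 (SE), adjusted p = 0.000323). Their summed level was 14832 to 15074 CPM on elastic and 16804 to 19435 CPM on viscoelastic gels, which did not overlap. These transcripts are short, with a median of 1048 nt. With the length and GC correction 39 rose and the median was 0.204. Many have near-identical pseudogenes, and how reads mapping to several places were counted is not stated, so values of single genes are uncertain. Other lists of short genes had fewer calls with that correction. Mitochondrial ribosomal proteins rose in 6 of 76 cases (1 without E1, 2 without E2 or V3, 3 without E3 or with the length and GC correction), a share of 7.89% that lay below the 8.77% of all genes, Mrpl39 first (log2 fold change 0.22, adjusted p = 0.015). Proteasome subunits rose in 6 of 38 (0 with the length and GC correction, 3 without E1, E2 or V2), Psmc6 first (log2 fold change 0.26, adjusted p = 0.00479). Nuclear genes of oxidative phosphorylation rose in 13 of 78 (3 with the length and GC correction, 5 without V3, 6 without E2, 8 without E3), Uqcrh first (log2 fold change 0.35, adjusted p = 0.00113), with 2 lower after the correction. None of the 8 genes tested from the mitochondrial genome was called. With 1 library fewer, the test was no longer passed by Mrpl39 (E1 or V3, 0.20 to 0.21). The length and GC correction ended the call of Mrpl39 and Psmc6.

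**Figure D5:**
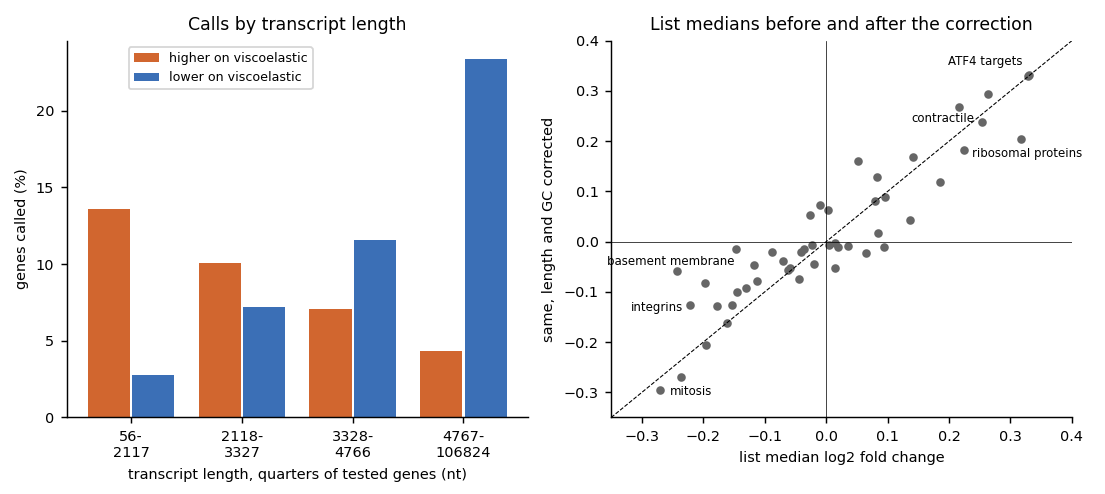
Left, percent of tested genes called higher (orange) or lower (blue) on 2-kPa viscoelastic gels in each of 4 classes of transcript length in nucleotides. Right, median log2 fold change of each gene list without (x axis) and with (y axis) the length and GC correction, 1 point per list with at least 10 tested members, and a dashed line of equality. Ribosomal proteins move from 0.318 to 0.204 and basement membrane genes from -0.243 to -0.0584, while ATF4 targets stay at 0.33 and mitosis lies at -0.27 and -0.296.

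Targets of ATF4, a transcription factor that answers amino acid shortage and endoplasmic reticulum stress, rose. Of 26 tested targets 17 rose (11 without E1) and none fell (65.4%, against 8.77%), with a median of 0.33 that the length and GC correction left at 0.332. Atf5 had 105, 121 and 106 CPM on elastic and 197, 204 and 192 CPM on viscoelastic gels (log2 fold change 0.84 ± 0.07 (SE), adjusted p = 8.32e-06). Atf4 itself had 144, 188 and 169 CPM on elastic and 267, 250.5 and 271 CPM on viscoelastic gels (log2 fold change 0.65 ± 0.086 (SE), adjusted p = 0.000193). Asns, asparagine synthetase, had 58.6, 82.1 and 70.1 CPM on elastic and 104, 111 and 106 CPM on viscoelastic gels (log2 fold change 0.61 ± 0.11 (SE), adjusted p = 0.00231). Trib3, a pseudokinase that restrains ATF4, had 9.76, 11.8 and 10.2 CPM on elastic and 17.6, 22.6 and 19.7 CPM on viscoelastic gels (log2 fold change 0.91 ± 0.10 (SE), adjusted p = 4.43e-05). The gels did not overlap for these 4 genes. Nupr1 (log2 fold change 0.69, adjusted p = 0.000123), the glutathione-degrading Chac1 (0.66, adjusted p = 0.0133) and Ddit3, CHOP (0.33, adjusted p = 0.00357), rose with them. For Atf4, Asns, Chac1 and Nupr1, E1 lay lowest of the elastic samples. Of the 15 that rose and had a promoter entry 5 (33.3%) held the letters TGATGNAA, a composite site of ATF4 with C/EBP proteins, against 2.47% of tested genes. They were Nupr1, Asns, Pycr1, Chac1 and Vldlr, and those of Asns, Chac1 and Nupr1 are shown, in this order from chr6:7693210-7693459 on the minus strand, chr2:119350992-119351241 on the plus strand and chr7:126625471-126625720 on the minus strand, with the letters in capitals.
Asns: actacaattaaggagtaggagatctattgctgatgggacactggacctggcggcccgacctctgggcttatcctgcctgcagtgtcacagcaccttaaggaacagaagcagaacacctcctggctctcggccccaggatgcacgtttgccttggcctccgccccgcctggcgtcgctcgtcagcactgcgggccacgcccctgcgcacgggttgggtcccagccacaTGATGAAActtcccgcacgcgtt
Chac1: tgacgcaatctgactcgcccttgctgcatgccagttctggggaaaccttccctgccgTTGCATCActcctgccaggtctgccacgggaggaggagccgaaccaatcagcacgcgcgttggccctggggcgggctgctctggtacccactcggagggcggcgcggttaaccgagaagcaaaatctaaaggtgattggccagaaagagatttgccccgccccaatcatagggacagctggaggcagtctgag
Nupr1: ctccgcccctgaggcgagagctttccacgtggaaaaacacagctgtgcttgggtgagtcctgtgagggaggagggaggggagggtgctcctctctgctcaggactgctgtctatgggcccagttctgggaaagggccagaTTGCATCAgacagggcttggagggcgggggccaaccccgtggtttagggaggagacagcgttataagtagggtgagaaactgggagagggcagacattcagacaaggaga
In Asns the letters start 23 bases before the start of the gene. Removal of a single library ended the call of Chac1 (E1 or V3, 0.47 to 0.61). After the correction for length and GC the test was no longer passed by Ddit3.

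Of 38 genes of NRF2 and glutathione 16 rose and 1 fell (42.1% and 2.63%). Gstm1, a glutathione transferase, had 30.3, 30.1 and 30.3 CPM on elastic and 42.5, 49.3 and 50.5 CPM on viscoelastic gels (log2 fold change 0.65 ± 0.07 (SE), adjusted p = 4.25e-05). Hmox1, heme oxygenase, had 129.8, 171 and 133 CPM on elastic and 263, 263 and 246 CPM on viscoelastic gels (log2 fold change 0.83 ± 0.14 (SE), adjusted p = 0.000906). Gstm2 (log2 fold change 0.77, adjusted p = 0.000101), Cat, catalase (0.31, adjusted p = 0.00209), and Gclm (0.44, adjusted p = 0.0026) rose and Prdx6 fell (-0.22, adjusted p = 0.0305). Nqo1, a standard NRF2 target, had 223, 236 and 220.4 CPM on elastic and 175, 207 and 182 CPM on viscoelastic gels (log2 fold change -0.27 ± 0.10 (SE), adjusted p = 0.0793). The NRF2 letters TGACNNNGC stood in the promoters of 6 of the 15 that rose with an entry (40.0%, against 13.9%). They were not particular to this list. Among genes that rose they stood in 2 of 7 YAP and TEAD targets and 3 of 15 ATF4 targets. Of ribosomal protein genes that rose 7 of 54 held them, and of contractile genes 0 of 10. Among genes that fell they stood in 3 of 8 lysosomal, 5 of 20 mitosis and 2 of 21 replication genes. Glutathione transferases of the mu class are near copies of each other, and their reads may be shared. Of 32 heat shock and endoplasmic reticulum chaperones 3 rose and 2 fell (1 without E1, E2, E3 or V3), 9.38% and 6.25% against 8.77% and 11.1% of all genes. Hsph1 had 201, 249 and 233 CPM on elastic and 357, 361 and 349.7 CPM on viscoelastic gels (log2 fold change 0.64 ± 0.073 (SE), adjusted p = 6.29e-05). Cryab (log2 fold change 0.49, adjusted p = 0.000554) and Herpud1 (0.31, adjusted p = 0.0113) rose, and Hyou1 (-0.36, adjusted p = 0.00501) and Canx (-0.23, adjusted p = 0.0343) fell. Not called without one of the 6 libraries were Prdx6 (E1, E2, V1, V2 or V3, -0.24 to -0.20), Herpud1 (E1, 0.25) and Canx (E1, E2, E3 or V3, -0.25 to -0.17).

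In metabolism, glycolytic and hypoxia-inducible genes rose in 12 of 35 cases (4 without E1, 5 without E3, 6 without V3) and fell in 2 (0 without E1, E2 or V3, 1 without V1 or V2). These were 34.3% and 5.71%, against 8.77% and 11.1% of all genes. Mxi1, a MYC antagonist, had 20.4, 21.3 and 20.8 CPM on elastic and 27.6, 25.5 and 27.5 CPM on viscoelastic gels (log2 fold change 0.37 ± 0.065 (SE), adjusted p = 0.00154). The glycolytic kinase Pgk1 (log2 fold change 0.27, adjusted p = 0.00635) and the peptide hormone Adm (0.62, adjusted p = 0.0422) rose, Eno2 (-0.43, adjusted p = 0.0314) and the carbonic anhydrase Car12 (-0.76, adjusted p = 0.03) fell. The glucose transporter Slc2a1 had 86.7, 89.1 and 84.6 CPM on elastic and 82.6, 102 and 83.7 CPM on viscoelastic gels (log2 fold change 0.044 ± 0.094 (SE), adjusted p = 0.782). Lysosomal genes fell in 11 of 38 cases (4 without E1) and rose in none, a share of 28.9% against 11.1% of all genes. Man2b1, a mannosidase, had 111, 98.1 and 96.7 CPM on elastic and 75.6, 80.3 and 77.3 CPM on viscoelastic gels (log2 fold change -0.39 ± 0.061 (SE), adjusted p = 0.00068). Hexa (-0.40), the cholesterol exporter Npc1 (-0.28), the protease Ctsb (-0.39) and Tfeb (-0.27), the factor that drives lysosomal genes, fell too. The lysosome list had a median of -0.16, and of -0.161 after the correction. Dependence on a single library was seen for Car12 (E1, E2, V2 or V3, -0.79 to -0.70), Adm (E1, E2, E3, V2 or V3, 0.50 to 0.68), Eno2 (E1, E2, V1 or V3, -0.48 to -0.32), Ctsb (E1, -0.31) and Tfeb (E1, E2, V1 or V3, -0.28 to -0.23). Corrected for length and GC, no call remained for Pgk1 and Adm.

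Fatty acid synthesis fell in 4 of 16 genes (2 with the length and GC correction). The elongase Elovl6 had 106, 112 and 102 CPM on elastic and 76.5, 73.2 and 76.3 CPM on viscoelastic gels (log2 fold change -0.50 ± 0.061 (SE), adjusted p = 0.000105). Fasn (log2 fold change -0.49, adjusted p = 0.00201), its regulator Srebf1 (-0.29, adjusted p = 0.00362) and Acaca (-0.28, adjusted p = 0.0365) fell too. In cholesterol synthesis, Acat2 rose (log2 fold change 0.28, adjusted p = 0.0211). Hmgcs1, an early enzyme of that pathway, had 117, 127 and 129.8 CPM on elastic and 129, 131 and 105 CPM on viscoelastic gels (log2 fold change -0.03 ± 0.077 (SE), adjusted p = 0.817). Of 5 alpha-arrestins Arrdc2 rose (log2 fold change 0.44, adjusted p = 0.0326) and Arrdc3 fell (-0.31, adjusted p = 0.00914). Txnip had 88.2, 84.1 and 93.0 CPM on elastic and 94.7, 96.0 and 97.3 CPM on viscoelastic gels (log2 fold change 0.12 ± 0.058 (SE), adjusted p = 0.168). A call was lost when 1 library was left out, named here with the log2 fold change without it, for Acat2 (E1, E2 or V2, 0.20 to 0.26), Arrdc2 (E1, E2, V2 or V3, 0.35 to 0.45) and Acaca (E1, E2, V2 or V3, -0.30 to -0.21). The length and GC correction ended the call of Acat2, Fasn and Acaca.

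Transcription factors of fibroblast identity had a median log2 fold change of 0.00276 over 33. The tendon factor Mkx had 9.83, 14.1 and 13.5 CPM on elastic and 23.5, 24.3 and 23.6 CPM on viscoelastic gels (log2 fold change 0.93 ± 0.14 (SE), adjusted p = 0.000409). Creb3l1 rose (log2 fold change 0.24, adjusted p = 0.014). Prrx1, a factor of limb and dermal mesenchyme, had 593, 600.3 and 565 CPM on elastic and 501, 467 and 449 CPM on viscoelastic gels (log2 fold change -0.31 ± 0.067 (SE), adjusted p = 0.00482). Factors used to reprogram fibroblasts were low. Myt1l had 0.309, 0.245 and 0.439 CPM on elastic and 0.678, 0.504 and 0.286 CPM on viscoelastic gels (log2 fold change 0.58 ± 0.40 (SE), adjusted p = 0.331). Sox2 and Nanog stayed at or under 0.312 CPM, and none of the 3 factors tested was called. Calls lost on leaving out 1 of these libraries, with the range of values without it, were those of Creb3l1 (E1 or V3, 0.21 to 0.24).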

How the data were processed

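PolyA RNA of 12 samples, 3 on each of 4 gels, was sequenced. The authors trimmed reads with Trimmomatic, aligned them to mm10 with STAR and deposited raw counts per gene made with featureCounts and a GENCODE annotation, whose release, strand setting and handling of reads that map to several places are not given in the sources used here. No replicates were pooled, and 0 columns of per-sample values were left unassigned. The authors' own tests used DESeq2.

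Groups came from the sample labels. Of 33246 genes, 10097 had no count and 14542 passed edgeR's filterByExpr (minimum count 10, minimum total 15). Counts were scaled by TMM and fitted in edgeR 4.0.16 (R 4.3.3) by quasi-likelihood, with 1 coefficient for each group and all 12 samples sharing 1 estimate of the spread (biological coefficient of variation 7.5%). Viscoelastic was tested against elastic at 2 kPa, and this effect against that at 20 kPa. The p-values were adjusted by Benjamini-Hochberg over all 14542 genes, and genes with an adjusted p under 0.05 were called. On simulated data, 84% of 2-fold changes were recovered at 2 kPa among 14542 genes. CPM are TMM-normalized.

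The 60 gene lists and the comparison were chosen with earlier results of these data known, so they are no independent support. Named genes were the 12 largest called rises and falls whose groups did not overlap and whose mean was at least 5 CPM on one gel, the called member of lowest adjusted p in each list and direction, and a fixed set. Some of these genes are not reported here. Further list members, such as Igfbp3, Itga5 or Bmp4, and the motifs CARE and CArG were chosen after their values were seen. Positions and transcript lengths came from a GENCODE annotation of mm10, in which all but 2255 of the 33246 symbols were matched, and promoters from RefSeq (GRCm38.p6). In the 250 bases before each start 13 motifs were searched on both strands, with overlaps allowed. They were GGAATG (TEAD), TGANTCA (AP-1), TGACNNNGC (NRF2), CCAAT (NF-Y), TTTGAA (CHR), TTTNGCGC (E2F), TCACNCCAC (SREBP), the interferon-stimulated response element, CACGTG (E-box), ACGTGC (hypoxia-inducible factors), TGACGTCA (CREB), TGATGNAA (CARE) and the CArG box.

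The 14 alternatives were DESeq2 size factors, total counts, the DESeq2 1.42.0 Wald test, no filter, the 6 samples alone, the replicate number as a block, a correction of each library for smooth trends in transcript length and GC content (5 degrees of freedom), the last 2 together, and each of the 6 samples left out.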

Additional observations from a re-analysis of the deposited data

Results flagged for a closer look

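Of the genes named above, 97 had an effect of the viscoelastic gel that differed between 2 and 20 kPa at an adjusted p under 0.05 in edgeR's test of that difference, which was called for 7.56% of all tested genes. Values are the log2 fold change at 2 kPa minus that at 20 kPa, and the genes are given by group. Many of these genes were chosen for their change at 2 kPa, so their number is a description. Among the 24 largest changes the difference was above 0 for Serpinb9b (2.21), U90926 (2.03), Oxtr (1.59), Cpa4 (1.53), Il6 (1.52), Mfap5 (1.21), Adamts5 (0.99), Dio3 (0.92) and Ankrd55 (0.76), and below 0 for Cyp1a1 (-2.37), Fbln7 (-2.15), Crispld1 (-2.05), Fap (-1.76), Mmp13 (-1.71), Enpp2 (-1.62), Tgfb2 (-1.62), Clca3a2 (-1.43), Ppargc1a (-1.40) and Mamdc2 (-1.27). Among contractile and cytoskeletal genes the difference was above 0 for Myh11 (2.06), Actg2 (1.26), Lmod1 (1.17), Tagln (0.88), Cnn1 (0.79), Acta2 (0.71), Tpm2 (0.53), Tubb2b (0.53), Myl9 (0.52), Rhob (0.50), Cnn2 (0.42) and Tmsb4x (0.36). Among adhesion genes the difference was above 0 for Lims2 (1.31), Itga3 (0.62), Zyx (0.60), Nexn (0.59) and Tln2 (0.54), and below 0 for Itga10 (-1.03) and Tns1 (-0.38). Among YAP and TEAD targets and immediate early genes the difference was above 0 for Ankrd1 (1.5), Klf2 (1.04), Klf4 (0.86), Amotl2 (0.83), F3 (0.74) and Fosl2 (0.34), and below 0 for Fjx1 (-1.11). Among matrix genes the difference was above 0 for Loxl2 (0.65), P4ha3 (0.54) and Cemip (0.54), and below 0 for Adamts9 (-1.93), Kera (-1.88), Col14a1 (-1.53), Eln (-1.13), Ltbp4 (-0.60), Col4a6 (-0.59), Agrn (-0.50), P3h2 (-0.47) and Mmp2 (-0.40). In growth factor pathways the difference was above 0 for Pappa2 (1.25), Nkd2 (0.94), Pdgfd (0.90), Rspo1 (0.86) and Fstl1 (0.43), and below 0 for Gdf10 (-1.58), Fgfr3 (-1.07), Igf1 (-1.01), Bmp5 (-0.69), Fgfr2 (-0.69), Tgfbi (-0.65), Tgfb1 (-0.59) and Bambi (-0.42). Among inflammatory genes the difference was above 0 for Cxcl1 (1.38), Cxcl5 (1.16) and Ccl7 (0.68), and below 0 for Cx3cl1 (-0.68) and Tapbp (-0.58). Among cell cycle, nuclear and chromatin genes the difference was above 0 for Perp (0.96), Hdac7 (0.51) and Lbr (0.49), and below 0 for Sesn1 (-0.55), Jarid2 (-0.40), Dnmt3a (-0.34), Kmt2c (-0.30) and H2bc4 (-0.30). Among metabolic and stress genes the difference was above 0 for Trib3 (0.85), Hsph1 (0.59), Arrdc3 (0.44) and Pgk1 (0.36), and below 0 for Elovl6 (-0.58), Hexa (-0.54), Prdx6 (-0.46) and Gstm1 (-0.40). Among cell type markers the difference was above 0 for Ly6a (0.80) and S100a4 (0.31), and below 0 for Col11a2 (-1.06), Fabp4 (-0.90), Chad (-0.84) and Sox5 (-0.39). For 29 of the 97 the viscoelastic gel had opposite called effects at the 2 stiffnesses, namely Serpinb9b, Crispld1, Cnn1, Acta2, Tagln, Myh11, Lmod1, Actg2, Tpm2, Tubb2b, Rhob, Zyx, Tln2, Ankrd1, Fjx1, Klf4, Col14a1, Loxl2, Adamts9, Bmp5, Gdf10, Nkd2, Igf1, Fgfr2, Fgfr3, Perp, Sesn1, Hdac7 and Prdx6.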

How the results depend on the processing

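With 1 library left out in turn, 1545 to 3085 genes were called, 663 to 1272 of them higher and 882 to 1813 lower. The other 8 alternatives called 2019 to 3112 genes, 991 to 1675 higher and 1028 to 1705 lower. Of the libraries left out, E1 gave the lowest of these counts. Without E2, 1924 were called. The 1028 were those with the replicate block and the length and GC correction together. The difference between 2 and 20 kPa was called for 670 (without E1) to 1182 genes (without V2), and for 1450 with no filter. Sharing a replicate number did not mark a pair, since the deviations of same-numbered samples from their group means had correlations of 0.0407, -0.124 and -0.0146. With the replicate block 2569 genes were called, and 845 for the difference. Of 51 lists outside the cell markers, 26 had a median above 0, and between 20 and 31 under the alternatives.

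Of 306 named genes tested, the length and GC correction ended the call of 60, the replicate block of 29, both together of 71, the fit of the 6 samples alone of 35, total counts of 22, no filter of 16, the DESeq2 test of 8 and its size factors of 2. Without E1, 93 were lost, without E2 68, without E3 36, without V1 35, without V2 47 and without V3 73. No called gene changed direction. Uncalled genes near 0 did. Ccnd1 stood at 0.00322 with DESeq2 size factors, 0.035 with total counts, 0.00198 in the DESeq2 test, 0.00548 with no filter, 0.00822 in the 6 samples alone, 0.015 with the length and GC correction and 0.00917 with the block added. Hmgcs1 was at 0.00622 with total counts, and Hdac1 at -0.0288 with the correction and -0.0291 with the block added. With 1 library left out, the log2 fold change ran from -0.129 to 0.0637 for Ccnd1, from -0.087 to 0.0663 for Hmgcs1, from -0.0459 to 0.0828 for Col1a1, from -0.057 to 0.0644 for Col3a1, from -0.0228 to 0.148 for Cdkn1a, from -0.0613 to 0.0971 for Slc2a1, from -0.0384 to 0.192 for Fos and from -0.117 to 0.0993 for Col2a1. The cause of these changes was not tested. On average over genes, counting error was small beside the spread between replicates, whose counts differed by a mean of 11.2 to 55.5 times the counting variance. Genes with many counts weigh most in this mean. It need not hold for genes with few counts, such as those near 1 CPM.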
